A study of Mus musculus with 6 samples.

Results

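The allantois and the mesoderm outside the embryo proper were followed through 9 genes: the transcription factor genes Tbx4, Pitx1, Foxf1 and Tbx3, the adhesion genes Vcam1 and Itga4, and Tgfbi, Pmp22 and Ahnak, whose products belong to the extracellular matrix and the cell membrane. They were chosen by name, and all 9 were found among the 21877 gene symbols of the deposited expression table. The embryos were mouse embryos labelled E7.5, with 3 libraries labelled WT (wild type) and 3 labelled KI, which are the Rnf111 S254D mutant of the study and are read here as a knock-in, and no treatment is recorded. Rnf111 (Arkadia) is a ubiquitin ligase known to act in Nodal and TGF-beta signalling, and the comparison asks how the mutant allele bears on transcript levels. The labels leave out strain, zygosity, embryo sex, litters, which tissues were dissected and whether embryos were pooled, so a p-value describes the spread between these libraries, part of which may be technical. Where a library holds many cell types, fewer cells of a type and less RNA per cell cannot be told apart.

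The allantois is a bud of mesoderm that grows from the posterior end of the primitive streak across the exocoelom, meets the chorion and later forms the vessels of the umbilical cord. Mesoderm of the same origin lines the amnion and the yolk sac and carries the first blood islands. In the mouse, Tbx4 is required for the vessels of the allantois, Foxf1 for the separation and growth of extraembryonic mesoderm, and binding of VCAM-1 on the allantois to the integrin alpha4 subunit on the chorion for the attachment of the pair. None of the 9 genes is limited to these tissues, since Tbx4, Pitx1 and Tbx3 also act in limb, Tbx3 and Foxf1 in heart or gut mesoderm, and Pmp22 in neural crest derivatives.

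Levels are RPKM, reads scaled by exon length and by library size. Library depth, worked out from the steps between low values, ran from 9763000 to 13560000 reads. WT 3 and KI 2 stood apart: Pearson's r on the log2 scale, taken across tested genes, which are not independent replicates, was 0.940 to 0.952 between WT 3 and any other library and 0.940 to 0.973 for KI 2, while WT 1, WT 2, KI 1 and KI 3 reached 0.988 to 0.996 among themselves. Of 9 primitive streak and epiblast markers, 7 stayed under 1 RPKM in every library, among them Eomes at no more than 0.0835 and Nodal at no more than 0.188, while T ran from 6.24 to 12.5 and Mixl1 from 2.72 to 17.0. Heart markers were present in the same libraries, Myl7 at 58.7 to 201 RPKM, and of 7 maternal decidua markers 6 stayed under 1, of which 4 were listed at 0 throughout. Since Eomes, Nodal and Pou5f1 are known to be expressed in the mouse embryo at E7.5, these levels put the labelled stage in doubt, and E7.5 is used here only as the label.

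RefSeq start sites (build GRCm38.p6, plus strand) were matched for 5 of the 9 genes. The bases before the start are shown for Tgfbi, Pmp22 and Ahnak, which differed in how they placed WT 3 and KI 2, and for Tbx4, the member best known from the allantois. Tbx4 is at chr11:85896515-85896764, Tgfbi at chr13:56609336-56609522, Ahnak at chr19:8989034-8989283 and the first of 4 Pmp22 starts at chr11:63128732-63128981. Each window holds the 250 bases before the start, except that Tgfbi is given only up to the first annotated exon base, 187 bases. Capitals mark every match, on either strand, to CAGAC (a short Smad site), GGCGCC (a GC-rich Smad site), GGTGTGA (a T-box site), GTAAACA (a forkhead site), TATAAA (the TATA box) and CCAAT.
Tbx4: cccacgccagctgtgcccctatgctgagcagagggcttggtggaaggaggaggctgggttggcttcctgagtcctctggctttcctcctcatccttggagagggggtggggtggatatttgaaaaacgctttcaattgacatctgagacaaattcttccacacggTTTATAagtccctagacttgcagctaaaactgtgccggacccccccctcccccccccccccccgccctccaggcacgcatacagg
Tgfbi: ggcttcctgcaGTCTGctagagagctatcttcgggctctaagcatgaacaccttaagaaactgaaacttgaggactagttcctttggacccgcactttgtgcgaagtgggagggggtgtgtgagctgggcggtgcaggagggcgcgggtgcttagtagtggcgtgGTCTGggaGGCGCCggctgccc
Ahnak: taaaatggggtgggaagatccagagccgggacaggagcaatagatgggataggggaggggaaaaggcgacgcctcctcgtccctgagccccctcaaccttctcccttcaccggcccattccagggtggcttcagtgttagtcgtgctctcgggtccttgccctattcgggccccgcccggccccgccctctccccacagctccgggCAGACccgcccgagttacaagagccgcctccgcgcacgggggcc
Pmp22: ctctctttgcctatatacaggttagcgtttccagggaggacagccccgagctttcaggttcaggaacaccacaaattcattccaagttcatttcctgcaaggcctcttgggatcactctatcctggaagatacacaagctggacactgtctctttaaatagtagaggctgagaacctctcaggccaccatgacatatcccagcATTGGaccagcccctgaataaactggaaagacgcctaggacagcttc
Tbx4 held a TATA box match 85 bases before its start, and 12.4% of 32851 promoters held one anywhere in the same length. Tgfbi, named for its induction by TGF-beta, held 2 matches to the short Smad site, found in 42.2% of promoters, and 1 to the GC-rich Smad site, found in 9.59%. Ahnak held 1 short Smad site match, and the Pmp22 window shown held 1 CCAAT match, present in 33.8% of promoters, while the other 3 Pmp22 windows each held 1 short Smad site match, 2 of them also 1 GC-rich Smad site match and 1 of them also a CCAAT match. No T-box match (3.33% of promoters) or forkhead match (3.17%) lay in these 4 windows, while the window of Itga4 held 1 T-box match. The window of Ahnak was 66.4% G or C, that of Tgfbi over all 250 bases 62.4%, that of Tbx4 58.4% and that of Pmp22 48.8%, against a median of 52.4% over all promoters. Such matches describe the letters and not bound sites.

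The genes covered a wide range of levels. Pmp22 was the most abundant in all 6 libraries, at 33.1 to 101 RPKM, above 92.1% to 97.1% of the symbols of its library. Ahnak, at 5.45 to 24.1, and Pitx1, at 5.22 to 16.3, came next and overlapped, with Ahnak above Pitx1 in 2 of 6 libraries. Foxf1 (1.99 to 5.61), Tgfbi (0.978 to 3.48) and Tbx3 (0.791 to 2.77) overlapped in turn, and so did Tbx4 (0.260 to 1.55) and Vcam1 (0.704 to 1.17). The ranges of Pitx1 and Foxf1 overlapped too, as did those of Tbx3 and Tbx4. Within each of the 6 libraries, though, Pitx1 was above Foxf1 and Tbx3 above Tbx4. Itga4 was the lowest in every library, at 0.150 to 0.311 RPKM, and its range did not reach that of Vcam1.

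**Figure D1:**
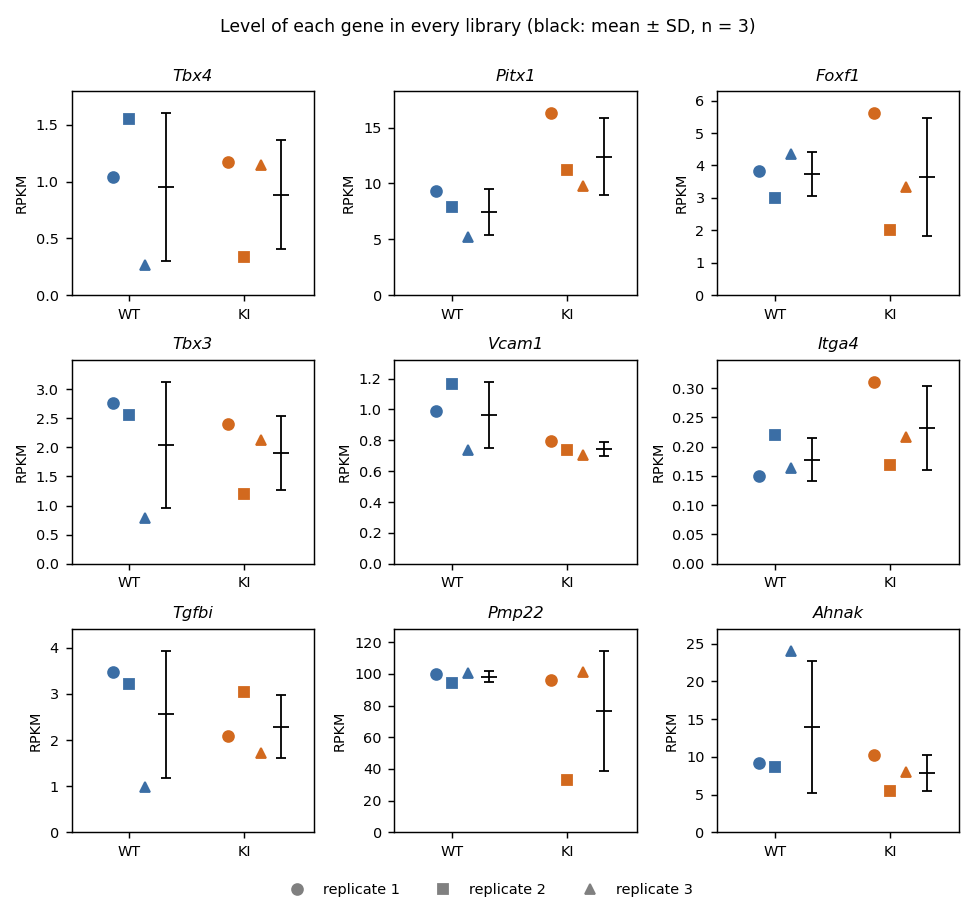
RPKM of each of the 9 genes (vertical axis, from 0) in 3 WT and 3 KI libraries, 1 point per library, with the mean ± SD of each group in black. The 3 KI values of Pitx1, 9.73 to 16.3, lie above the 3 WT values, 5.22 to 9.30, while Pmp22 is low in KI 2 alone, at 33.1.

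Among the transcription factor genes, Pitx1 was the only one whose groups did not overlap. Pitx1, a homeobox factor of the hindlimb field, posterior lateral mesoderm and oral ectoderm, stood at 9.30, 7.87 and 5.22 RPKM in WT 1, 2 and 3 and at 16.3, 11.2 and 9.73 in KI 1, 2 and 3. All 3 KI libraries lay above all 3 WT libraries, but WT 1 and KI 3 were close, and KI 1 was far above the rest. Groups lay apart with KI higher for 3.8% of all tested genes and with KI lower for 2.74%. The KI mean of 12.4 ± 3.45 was 1.66 times the WT mean of 7.46 ± 2.07 (SD, n = 3 each), a log2 difference of 0.66 (SE 0.27, 95% interval 0.03 to 1.30). By limma with Benjamini-Hochberg adjustment over all tested genes this did not pass (unadjusted p = 0.0416, adjusted p = 0.999), and the exact two-sided permutation p was 0.1, the smallest that 3 against 3 can give. It rested on 188 to 498 reads per library, and 10.3% of its exon bases overlap the gene models Gm28760, on the same strand, and Gm47071, on the opposite strand, so a share of its reads cannot be assigned with certainty.

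Tbx4 and Tbx3, both T-box factors, differed more by library than by genotype. Tbx4 was at 1.04, 1.55 and 0.260 RPKM in WT 1, 2 and 3 and at 1.18, 0.331 and 1.15 in KI 1, 2 and 3. It was low in WT 3 and KI 2, which held 12 and 11 reads against 45 to 67 in the other 4 libraries, and the groups overlapped. The counting interval of the KI 2 value alone ran from 0.165 to 0.593 RPKM (exact Poisson, 95%, counting error only) and did not reach the 4 higher values. Tbx3, which acts in yolk sac, limb and heart mesoderm, was at 2.77, 2.56 and 0.791 in WT 1, 2 and 3 and at 2.40, 1.19 and 2.12 in KI 1, 2 and 3. Here too WT 3 and KI 2 were the low libraries, and the other 4 lay within 1.30-fold of each other. The group means were 0.951 ± 0.651 (WT) and 0.885 ± 0.480 (KI) for Tbx4 and 2.04 ± 1.09 and 1.90 ± 0.634 for Tbx3 (SD, n = 3 each). The log2 differences of -0.03 (95% interval -0.76 to 0.71) and -0.02 (-0.78 to 0.75) were far smaller than the spread between replicates (exact permutation p = 1.0 for each).

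Foxf1, the forkhead factor of extraembryonic and lateral plate mesoderm, was at 3.82, 3.01 and 4.37 RPKM in WT 1, 2 and 3 and at 5.61, 1.99 and 3.34 in KI 1, 2 and 3. It differed from the T-box genes in WT 3, where it was the highest of the WT libraries, and its KI values enclosed the WT values on both sides. KI 2 had 47 reads and KI 1 had 156. The means of 3.73 ± 0.686 in WT and 3.65 ± 1.83 in KI (SD, n = 3 each) gave a log2 difference of -0.09 (95% interval -0.80 to 0.62, exact permutation p = 0.9).

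The adhesion pair was present only at low level. Vcam1, the immunoglobulin-family ligand on the allantois, was at 0.990, 1.17 and 0.740 RPKM in WT 1, 2 and 3 and at 0.794, 0.739 and 0.704 in KI 1, 2 and 3. WT 1 and WT 2 lay above all KI libraries, and WT 3 lay among them. The means were 0.965 ± 0.214 and 0.746 ± 0.0451 (SD, n = 3 each; log2 difference -0.17, exact permutation p = 0.2), from 64 to 131 reads. Itga4, which encodes the alpha4 integrin subunit that binds VCAM-1 and fibronectin, was at 0.150, 0.220 and 0.164 in WT 1, 2 and 3 and at 0.311, 0.169 and 0.217 in KI 1, 2 and 3. KI 1 was the highest and the other 5 libraries intermingled, with 23 to 50 reads, and 8.04% of its exon bases overlap Cerkl on the opposite strand. Its log2 difference was 0.06 (exact permutation p = 0.3). Both were too low for the fit across genes, Vcam1 with 1 library at 1 RPKM or more and Itga4 with none. The ratio of Vcam1 to Itga4, looked at after the values were seen, was 4.52 to 6.58 in WT and 2.55 to 4.39 in KI. The nearest values, in WT 3 and KI 2, rest on 31 and 23 Itga4 reads and lie within counting error of each other. The lowest ratio, 2.55, was in KI 1, the library with the most Itga4. Neither gene separated the groups alone. How often the ratio of 2 low genes separates the genotypes was not worked out, so this separation is not read as a result.

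Of the genes for matrix and membrane proteins, Pmp22 was steady in all libraries but KI 2. Pmp22, a tetraspan membrane glycoprotein known from myelin, was at 99.9, 94.1 and 101 RPKM in WT 1, 2 and 3 and at 96.1, 33.1 and 101 in KI 1, 2 and 3. KI 2 was at 0.331 times the median of the other 5, with 760 reads against 2604 to 3212, while WT 1, WT 2, KI 1 and KI 3 varied with a CV of 3.31%, where counting error alone would give 1.88%. WT 3, which departed from the others for many genes, did not for Pmp22. The log2 difference of -0.51 (95% interval -1.45 to 0.43) between means of 98.2 ± 3.56 in WT and 76.8 ± 37.9 in KI (SD, n = 3 each) was not beyond the spread (exact permutation p = 0.7), and it was 0.01 without KI 2.

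Ahnak and Tgfbi lay on opposite sides of the other libraries in WT 3. Ahnak, a very large scaffold protein under the cell membrane, was at 9.13, 8.68 and 24.1 RPKM in WT 1, 2 and 3 and at 10.3, 5.45 and 7.94 in KI 1, 2 and 3. WT 3 was at 2.77 times the median of the other 5 libraries, from 6506 reads, and KI 2 was the lowest. Tgfbi, a secreted matrix protein that binds integrins, was at 3.48, 3.22 and 0.978 in WT 1, 2 and 3 and at 2.10, 3.04 and 1.73 in KI 1, 2 and 3. WT 3 was the lowest, at 0.321 times the median of the others, and KI 2 lay with WT 1 and WT 2. For Ahnak the means were 13.96 ± 8.76 in WT and 7.89 ± 2.41 in KI, with a log2 difference of -0.64 (95% interval -1.59 to 0.31, exact permutation p = 0.4). That difference was -0.19 without WT 3 and 0.02 without WT 3 and KI 2. For Tgfbi they were 2.56 ± 1.38 and 2.29 ± 0.679, with a log2 difference of -0.04 (-0.85 to 0.76, exact permutation p = 0.9; SD, n = 3 each). Without WT 3 and KI 2, both Tgfbi values in KI lay below both in WT (log2 difference -0.58, unadjusted p = 0.00272, limma adjusted p = 0.154). In that smaller comparison 24.3% of all tested genes were separated in the same way and 42.9% in either direction, and limma called 41 genes (0.406%), none of them a member. The genotypes also differed there in the summed RPKM of 4 Y-linked genes, 41.0 and 42.5 in WT 1 and WT 2 against 7.29 and 0.0 in KI 1 and KI 3 (WT 3 and KI 2 were at 62.0 and 50.9), so sex and genotype cannot be told apart in it. Over all 6 libraries sex was unbalanced as well, with a high sum in every WT library but, among KI, in KI 2 alone. The part of sex in the differences over 6 libraries was not tested.

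No gene of the 9 passed the test between genotypes. The fit covered 7 of them, and limma, run on log2(RPKM + 1) values and adjusted by Benjamini-Hochberg, called 0 at an adjusted p under 0.05, where 0.0% of the 10104 tested genes were called. At an unadjusted p under 0.05 there was 1 member, Pitx1, against 121 genes (1.2%) overall and 63 (0.624%) with KI higher. The voom form of limma on recovered reads also called 0 genes, with 92 at an unadjusted p under 0.05. Weighting libraries by their fit called 93 genes (0.92%), again with 0 members, Pitx1 being nearest (log2 difference 0.83, limma adjusted p = 0.0559). That fit leaned on KI 1 (weight 7.75), the library with the most Pitx1, and on WT 2 (weight 3.41), which also differed in summed Y-linked RPKM (7.29 and 42.5), so sex and genotype cannot be told apart there either. Groups failed to overlap with KI higher for 1 of 7 (3.8% of all tested genes) and with KI lower for 0 of 7 (2.74%). The median log2 difference of the 7 was -0.04, beside 0.05 over all tested genes, and 6 of 7 differences were negative where 4164 of 10104 were. Of these 6, Tbx4, Tbx3, Tgfbi and Foxf1 lay between -0.02 and -0.09, each within its SE. All 6 turned direction under some of the alternative settings. With libraries brought to a single median, the count of positive differences over all genes went from 5940 to 4460, while all 7 kept their sign.

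**Figure D2:**
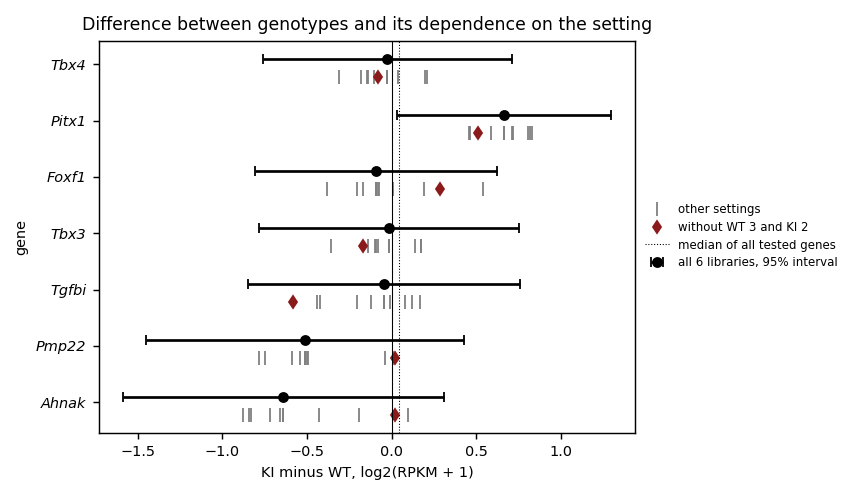
KI minus WT difference on the log2(RPKM + 1) scale (horizontal axis) for the 7 tested genes, with the 95% interval from limma on all 6 libraries in black, other settings on the same scale as grey ticks and the fit without WT 3 and KI 2 as red diamonds. Pitx1 stays between 0.46 and 0.83 in every setting drawn, while Pmp22 and Ahnak move from -0.51 and -0.64 to 0.02 without WT 3 and KI 2.

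For Tbx4, Tbx3, Tgfbi, Pmp22 and Ahnak the library furthest from the others was WT 3 or KI 2, and the genes placed those libraries differently. KI 2 was under 0.5 times the median of the other 5 libraries for 3 of 7 tested genes, Tbx4 (0.289), Tbx3 (0.496) and Pmp22 (0.331), a position shared by 5.54% of all tested genes. Foxf1 was just outside at 0.521. KI 2 was the lowest library for Foxf1, Pmp22 and Ahnak (3 of 7, 20.6% of all genes). WT 3 was under 0.5 times the median for Tbx4 (0.227), Tbx3 (0.329) and Tgfbi (0.321), which 24.2% of all genes were. It was the lowest library for 4 of 7, where 51.9% of all genes had their lowest value, so that count is close to the background. Both libraries lay below the other 4 for Tbx4 and Tbx3, as for 32.1% of genes. Ahnak was the single tested member with its highest value in WT 3 (19.4% of genes) and with WT 3 above 2 times the median (1.98% of genes). These patterns were picked after the values were seen.

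**Figure D3:**
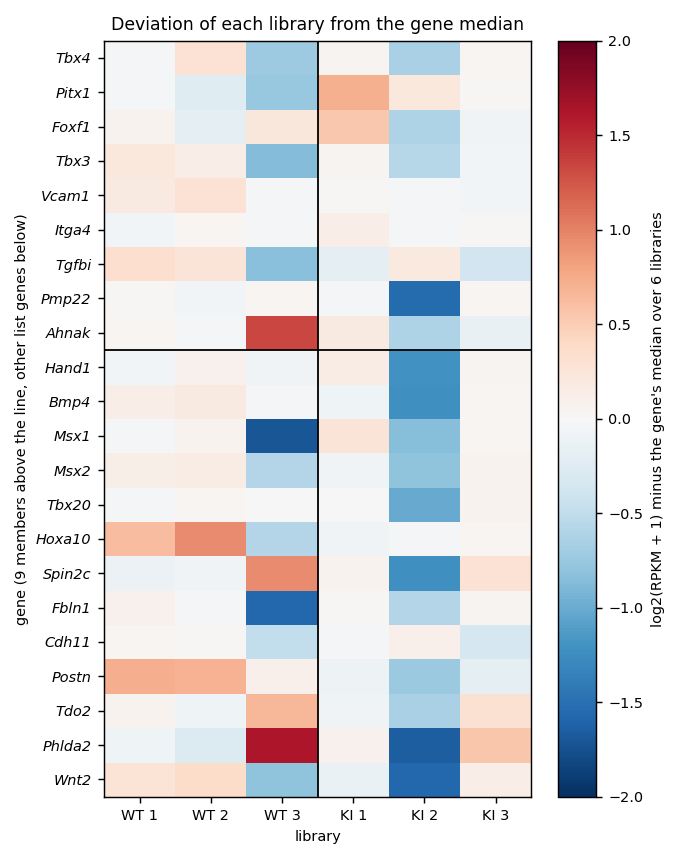
Log2(RPKM + 1) of each gene minus its own median over the 6 libraries (colour, red above and blue below), for the 9 genes above the line and 13 other allantois and extraembryonic mesoderm genes below it, with libraries in columns. KI 2 is blue for Tbx4, Tbx3, Foxf1, Pmp22 and Ahnak, and WT 3 is blue for Tbx4, Pitx1, Tbx3 and Tgfbi but red for Ahnak.

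Tbx4 and Tbx3 were the closest pair of members. Their profiles, each centred on its own mean over 6 libraries, differed by a root mean square of 0.14 log2 units, and 1.84% of tested genes lay nearer to Tbx4 and 2.79% nearer to Tbx3. Foxf1 and Pmp22 were 0.38 apart, with 4.20% of genes nearer to Pmp22 but 31.0% nearer to Foxf1. The furthest pair was Tgfbi and Ahnak, at 0.95. By the same measure the named genes nearest to Tbx4 were Mtfp1 (0.0643), Slc16a13 (0.0653) and Sgpl1 (0.0714), and those nearest to Tbx3 were Jup (0.0451), Emilin1 (0.0491) and Tspan4 (0.0519). Tgfbi had Sh2d3c (0.0565), Idh1 (0.0583) and Plcg2 (0.0918) as neighbours, and Pmp22 had Klhl31 (0.0800), Rgs5 (0.0923) and Bbs5 (0.0933). Foxf1 had Slc7a7 (0.0909), Tmem150a (0.129) and Slc23a1 (0.134), and Ahnak had Tmem170 (0.131), Folr1 (0.173) and Klhl42 (0.182). Pitx1 had Nfil3 (0.148), Nr4a1 (0.158) and Phkg2 (0.159). These likenesses rest on 6 libraries, 2 of which carry most of the variation, and are given as a description. They are on the log2(RPKM + 1) scale, which shrinks the changes of low genes, so a near neighbour need not change by the same fold. Tbx4 ran from 0.260 to 1.55 RPKM, while Mtfp1 ran from 6.20 to 12.1. The ratio of Tbx3 to Tbx4 ran from 1.65 in WT 2 to 3.59 in KI 2.

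Other genes of the allantois and extraembryonic mesoderm gave no call either. Of 16 listed, 13 were tested, 0 passed in each direction, 3 had a positive and 10 a negative difference, and their median was -0.35. Without WT 3 and KI 2 the median was 0.01, with 7 positive and 6 negative differences. KI 2 was the lowest library for 9 of the 13, against 20.6% of all genes. Hand1, a basic helix-loop-helix factor of this mesoderm, stood at 1.80 RPKM in KI 2, below the 5.17 to 6.18 of the rest. Bmp4, the BMP ligand needed to form it, was at 8.02 against 18.7 to 22.7, and Tbx20, another T-box gene, at 0.333 against 1.64 to 1.82. With Bmp4, the most abundant were Phlda2, an imprinted growth regulator, at 42.7 in KI 2, 418 in WT 3 and 113 to 201 elsewhere, and Spin2c, at 24.7, 115 and 54.2 to 72.4. Like Ahnak, these last 2 were lowest in KI 2 and highest in WT 3. The matrix gene Postn, chosen after its values were seen, was the only tested gene of this list with separated groups, at 1.66 to 3.14 in KI and 3.75 to 6.31 in WT (log2 difference -0.85, unadjusted p = 0.0138, limma adjusted p = 0.999). Over all tested genes, groups were separated with KI lower for 2.74% and with KI higher for 3.8%. Without WT 3 and KI 2, Postn passed (log2 difference -0.86, limma adjusted p = 0.0391), the single call in this list, where 0.406% of all tested genes were called. Sex and genotype cannot be told apart in the fit that gave this call.

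Of 12 genes in a list for the joining of chorion and allantois, 10 were tested, with 8 positive and 2 negative differences, a median of 0.12 and 0 calls, where 58.8% of all tested genes were positive. With libraries scaled to one median 7 were positive and the median was 0.04, and without WT 3 and KI 2 7 were positive and it was 0.05. Ccn1, a secreted matrix-associated protein and integrin ligand, was at 62.9 to 89.7 RPKM in KI and 38.7 to 40.1 in WT without overlap (log2 difference 0.93, limma unadjusted p = 0.000689, adjusted p = 0.999). Groups lay apart with KI higher for 3.8% of all tested genes. Without WT 3 and KI 2, Ccn1 passed (log2 difference 0.82, limma adjusted p = 0.0303), as 0.406% of all tested genes did and no other gene of its list. That fit, too, cannot tell sex from genotype. Cdx2, a caudal factor of the posterior embryo and chorion, followed Tbx4 in being low in WT 3 (1.96) and KI 2 (2.04) and at 6.32 to 7.41 in the other 4. Bmp5 was low in KI 2 alone, at 0.509 against 1.59 to 1.92. The chaperone gene Dnajb6 (42.6 to 65.9) and the RNA-binding protein gene Zfp36l1 (27.6 to 59.1) had overlapping groups. The chorion genes Gcm1 and Wnt7b reached at most 0.218 RPKM. Among partners of the adhesion pair, 8 of 12 were tested, 3 positive and 5 negative with a median of -0.04, and 0 passed. Itgb1, the beta1 subunit that pairs with alpha4, was far above Itga4 at 40.7 to 59.3 RPKM, and Fn1, fibronectin, was at 10.2 to 17.6. Itgb7, the other beta partner of alpha4, stayed under 1 RPKM.

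Lists for inputs to these genes and for their other sites of expression were also read. The hedgehog list, whose signal acts upstream of Foxf1 in mesoderm, had 5 of 10 genes tested, all 5 positive with a median of 0.31 and 0 calls. With libraries scaled to one median 4 were positive, and without WT 3 and KI 2 there were 3, with a median of 0.04. Ptch1, the receptor and target, was at 9.98 to 11.4 in KI and 7.97 to 8.72 in WT (limma adjusted p = 0.999), and Gli3 at 12.1 to 13.1 and 10.1 to 11.3. Neither overlapped between genotypes, with KI higher, as held for 3.8% of all tested genes. Ihh, the ligand of the yolk sac endoderm, reached at most 0.142 RPKM. Limb and lateral plate genes had 2 positive and 7 negative differences over 9 tested of 10 (median -0.14, 0 calls). Over all 10104 tested genes 4164 were negative. With libraries scaled to one median the 2 counts were the same and the median was -0.22. Without WT 3 and KI 2 there were 1 positive and 8 negative differences (median -0.18, 0 calls), beside a median of -0.02 over all tested genes. In that smaller comparison sex and genotype cannot be told apart. Isl1 was at 9.93 to 19.8 RPKM, Meis1 at 5.48 to 9.48 and Meis2 at 6.86 to 8.59. Among TGF-beta responsive genes 3 were tested, 2 positive and 1 negative (median 0.27, 0 calls), and the median was -0.03 without WT 3 and KI 2. Skil was highest in WT 3 at 40.4, where Tgfbi was lowest, and Pmepa1 and Tagln reached at most 0.257. Neural crest markers, relevant to Pmp22, had 4 of 6 tested, 2 in each direction. Their summed level was 26.7 to 31.6 RPKM in WT and 24.4 to 29.4 in KI, most of it Ednrb (18.7 to 27.1). In KI 2, Sox10, Foxd3 and Tfap2b had their highest value, and Ednrb, Tfap2a and Erbb3 lay within the range of the other libraries. The part of neural crest in the low Pmp22 value of KI 2 was not tested.

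Markers of yolk sac endoderm and heart were also low in KI 2. The summed level of 8 yolk sac endoderm markers was 9.19 RPKM in KI 2 but 433 to 1239 in each of the others, with KI 2 lowest for 8 of 8 and WT 3 at the top of that range. The 6 heart markers summed to 101 in KI 2 and 334 to 416 elsewhere, with KI 2 lowest for 6 of 6 and WT 3 at 99.4% of the mean of the list. In contrast 6 primitive blood markers (2440 in KI 2, 1779 to 2627 elsewhere) and 6 endothelial markers (16.5 in KI 2, 10.04 in WT 3 and 18.5 to 24.0 in the others) did not single out KI 2. Of 7 trophoblast and chorion markers, 5 stayed under 1 RPKM, 2 of them listed at 0 throughout, and the list summed to 5.68 in KI 2 and 11.5 to 18.2 elsewhere, most of it Plac1. The part of these tissues in the values of Tbx4, Tbx3, Foxf1, Pmp22 and Ahnak in KI 2 and WT 3 was not tested.

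**Figure D4:**
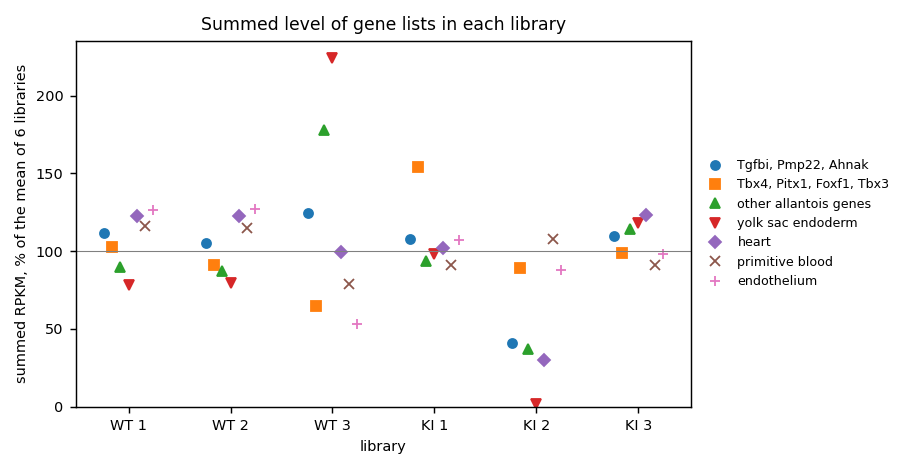
Summed RPKM of 7 gene lists in each library, as a percentage of the mean of the list over the 6 libraries (vertical axis, from 0; grey line at 100). In KI 2 the sum of Tgfbi, Pmp22 and Ahnak is at 41.2%, most of it Pmp22 (Tgfbi alone is at 125% of its mean), the other allantois genes at 37.2%, heart at 30.0% and yolk sac endoderm at 1.66%, while the 4 transcription factor genes are at 89.0%, most of it Pitx1.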

How the data were processed

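RNA from 6 libraries was captured on oligo(dT) beads and made into libraries with a SMARTER mRNA-seq kit, per the labels' protocols. The authors deposited RPKM, a reading that rests on the numbers themselves, although the labels speak of raw counts. Multiplied by merged exon length (GENCODE M21, on build GRCm38, matched for 97.1% of symbols), 97.9% to 98.0% of the values under 2000 reads were whole within 0.05, which gave depth and reads. The build named in the submitters' processing notes is GRCm39, whereas the exon lengths that gave whole reads are those of GENCODE M21 on GRCm38. This difference was not resolved. Aligner, counter, annotation and strand are not given in the sources used here, so a gene and its antisense or overlapping partner may share reads. Of rows that shared a symbol (20 symbols), only the most abundant entered. No per-sample column was left out.

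KI was set against WT for the 10104 genes that reached 1 RPKM in 3 or more libraries. The values, as log2(RPKM + 1), went into limma 3.58.1 (R 4.3.3; trend and robust options, no covariate), and p-values were adjusted by Benjamini-Hochberg (threshold 0.05). Log2 differences on that scale understate the change of low genes. For single genes all 20 arrangements of the labels were enumerated (exact permutation test, two-sided, scipy 1.17.1). The fit was also run on simulated data in which all libraries had the same spread and none stood apart. Since WT 3 and KI 2 did stand apart, that run does not show how many real changes the fit would miss here. Alternatives were a pseudocount of 0.1, no filter, scaling to one median, voom, library weights, a replicate block and leaving out libraries. Libraries differed beyond sampling noise in every pair (mean chi-square per gene 3.69 for WT 1 and WT 2, 9.49 to 142 otherwise), so none were merged. All 9 members are named, then up to 3 members of each list with the highest mean RPKM and any that passed, and the 3 nearest profiles of each tested member that spanned at least 1 log2 unit. Further genes were chosen after their values were seen. The members and lists were chosen with earlier results of these data known. Promoter sequences are from RefSeq (GRCm38.p6). Poisson intervals cover counting error only. A gene of these lists is not reported here.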

Additional observations from a re-analysis of the deposited data

How the results depend on the processing

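Under 13 alternatives 0 of the 7 tested members was called. Over all genes, the count of 0 became 41 without WT 3 and KI 2 and 93 with library weights (the weights were 7.75 for KI 1 and 3.41 for WT 2, 0.110 to 1.25 for the others), and it was 0 when any single library was left out. The median member difference ranged from -0.31 to 0.18 with a library left out.

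Of 91 recomputed member differences, 14 could not move, since neither dropping the filter nor the block changes the estimate. Of the other 77, 56 kept their direction and 21 turned. Pitx1 kept it in 11 of 11 (0.46 to 0.83; adjusted p 0.0559 with library weights to 1.0), with 0.46 to 0.82 when a library was left out. With a pseudocount of 0.1, Tbx4 turned to 0.0061 and Tbx3 to 0.026 (exact permutation p = 1.0 for both), and with voom they were 0.081 and 0.066. Without WT 3 and KI 2, Foxf1 was 0.29, Pmp22 0.023 and Ahnak 0.020, and with library weights Foxf1 was 0.54 and Ahnak 0.095; the cause was not tested. Leaving out a library in turn gave -0.31 to 0.21 for Tbx4, -0.38 to 0.19 for Foxf1, -0.36 to 0.18 for Tbx3, -0.42 to 0.17 for Tgfbi, -0.79 to 0.0057 for Pmp22 and -0.88 to -0.19 for Ahnak.

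Correlations of same-numbered deviations from the group means were 0.124, -0.051 and 0.0054, within the -0.140 to 0.137 of differently numbered libraries. As WT 3 and KI 2 carry most of the variation, these values cannot settle whether the replicate numbers pair the libraries. With the replicate block 0 genes were called, and 139 against 121 had an unadjusted p under 0.05. Depth limits Tbx4, Itga4 and Vcam1, with as few as 11, 23 and 64 reads in a library.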
